A study of Mus musculus with 19 samples.

Results

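Internal out-of-frame open reading frames (ORFs) are translated stretches that lie inside the coding sequence of a known protein but are read in another frame. They were taken from the authors' lists of translated ORFs in 5 libraries as the ORFs called internal on at least 1 transcript and never called annotated, upstream or start-overlapping in any library. The rule found 1201 ORFs of 21663 listed in all, in 936 genes. Another 90 ORFs that were internal on some transcript were left out because a different transcript made them annotated or upstream. Of the 1201, 764 were called internal on every transcript, 365 were also called new ORFs on some transcript and 126 also lay after or across the stop codon of another transcript.

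The study measured ribosome footprints and RNA in mouse organoids (strain C57BL/6) derived either from alveolar type 2 (AT2) cells, which make surfactant and renew the alveolus, or from lung adenocarcinoma (LUAD). Organoids were plated for 48 hours and exposed for 5 minutes to 100 µM cycloheximide, a blocker of translation elongation. The ORF lists cover 2 AT2 cultures and 3 tumour organoid cultures that the submitters describe as independent, and the LUAD lists are titled KP and are LUAD by their source label. Footprints were deposited for 3 AT2 and 4 LUAD libraries, and RNA for 3 AT2 and 4 LUAD libraries, to which the labels give the same RiboLace protocol. Whether the ORF lists share material with the footprint libraries is not stated. All footprints came from RiboLace, a capture of actively translating ribosomes together with the RNA they protect.

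A ribosome reads RNA in steps of 3 bases, so each base belongs to 3 possible reading frames and a coding sequence can hide other ORFs in the frames it does not use. A scanning ribosome that passes the first AUG, or that starts again after a short ORF, can begin at such an internal AUG. Footprints are assigned to a frame through the P-site, the place in the ribosome that holds the growing peptide. The frame signal of an internal ORF lies on top of that of the host protein, so the signals are hard to tell apart.

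Only 2 members lie whole inside the reference promoter windows and are printed here to show what such an ORF looks like, with the start and stop codons in capitals. Both sequences are from RefSeq on GRCm38.p6 (mm10), and their translation equalled the listed peptide. The Peak1 ORF lies on the minus strand at chr9:56241190-56241333 inside the coding sequence of Peak1, a pseudokinase of the cytoskeleton. The Slc2a1 ORF lies on the plus strand at chr4:119132149-119132271 inside the coding sequence of Slc2a1, the glucose transporter GLUT1.
Peak1 internal ORF: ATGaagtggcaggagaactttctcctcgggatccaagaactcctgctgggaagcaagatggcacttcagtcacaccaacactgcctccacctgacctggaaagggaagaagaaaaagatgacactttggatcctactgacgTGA
Slc2a1 internal ORF: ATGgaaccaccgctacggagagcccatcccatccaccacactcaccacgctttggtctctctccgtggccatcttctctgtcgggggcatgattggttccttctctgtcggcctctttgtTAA

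The Peak1 ORF spans 47 codons in the frame shifted by 1 base from the protein's (+1), and LUAD library 1 listed it with 16 P-sites in its own frame, 8 in the frame of the Peak1 protein and 5 in the remaining frame. The Slc2a1 ORF spans 40 codons in the frame shifted by 2 bases (+2), and AT2 library 1 listed it with 10 P-sites in its own frame, 6 in the frame of the transporter and 2 in the remaining one. Over the Peak1 stretch the host frame held no stop codon and the remaining frame held 4. Over the Slc2a1 stretch these numbers were 0 and 1. With so few P-sites the own-frame share was loosely measured, at 55.2% for Peak1 (exact 95% binomial interval 35.7% to 73.6%) and 55.6% for Slc2a1 (30.8% to 78.5%). All intervals on P-sites and on shares of ORFs cover counting error only.

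The bases around a start codon matter for its use, and a purine at position -3 with a G at +4 (counted from the A of the AUG as +1) is the favourable context. Start sites of 5 members lay inside the reference windows, and their contexts are shown with the -3 base, the AUG and the +4 base in capitals.
Peak1: tgaCccATGA
Slc2a1: tcaAacATGG
Smtn: tccAggATGG
Psmc5: cgcTtgATGG
Aamp: ccaTctATGA
The ORFs of Slc2a1 and of Smtn, which encodes the smooth muscle protein smoothelin, had both favourable bases, so 2 of 5 had them. Among 1154 starts of annotated coding sequences in the same windows, 672 (58.2%) had both. Among all 241611 ATG triplets on both strands of the windows, 15.9% had both. The pattern ANNATGG or GNNATGG, searched on both strands of the 32851 windows of 300 bases, occurred in 65.5% of them. With 5 members the share in internal ORFs is not measured to any useful precision.

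Most internal ORFs were short. The median length was 56 codons, with quartiles at 38 and 85, and 999 of 1201 (83.2%) had at most 100 codons. The lists hold no ORF under 60 bases, and the shortest members reached that floor of 20 codons. Among them were ORFs in Tbk1, a kinase of innate immune signalling, in Drosha, the nuclease that cuts microRNA precursors, and in Rlim, a ubiquitin ligase. The longest had 354 codons and lay in Mink1, a kinase of the MAP kinase pathway, where LUAD library 3 listed it with 10 own-frame P-sites of 18. In all, 27 members exceeded 200 codons. A member has to fit inside a coding sequence, so it is shorter than its host by definition. Upstream and start-overlapping ORFs were about as short, with a median of 171 bases against 168 for members, and annotated coding sequences had a median of 1413 bases. Every listed ORF began with methionine, and 333 members (27.7%) lay in a single exon.

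Libraries of the same tissue differed widely in how many internal ORFs they listed. AT2 libraries 1 and 2 listed 280 and 178 members, and LUAD libraries 1, 2 and 3 listed 495, 126 and 195. Annotated coding sequences in these lists (1 per gene) carried 0.0473 M and 0.126 M P-sites over all frames in AT2, and 1.99 M, 0.369 M and 0.297 M in LUAD. As a share of all listed ORFs, members made up 10.8% and 4.02% in AT2 and 3.7%, 1.55% and 3.63% in LUAD. The highest share thus came from the shallowest library, AT2 library 1, and the exact 95% interval of AT2 library 2 (3.46% to 4.64%) overlapped those of LUAD libraries 1 and 3. The number averaged 229 ± 72.1 in AT2 and 272 ± 196 in LUAD (SD, n = 2 and 3; exact permutation test, two-sided p = 1). The share averaged 7.40% ± 4.78 in AT2 and 2.96% ± 1.22 in LUAD (SD, n = 2 and 3; exact permutation test, two-sided p = 0.2, the smallest that 2 against 3 libraries allow). Without LUAD library 1 the difference in number turned from 43 more in LUAD to 68.5 fewer, and without AT2 library 2 it was 8 fewer. The share was 1.06 percentage points lower in LUAD without AT2 library 1, against 4.44 points with it.

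**Figure D1:**
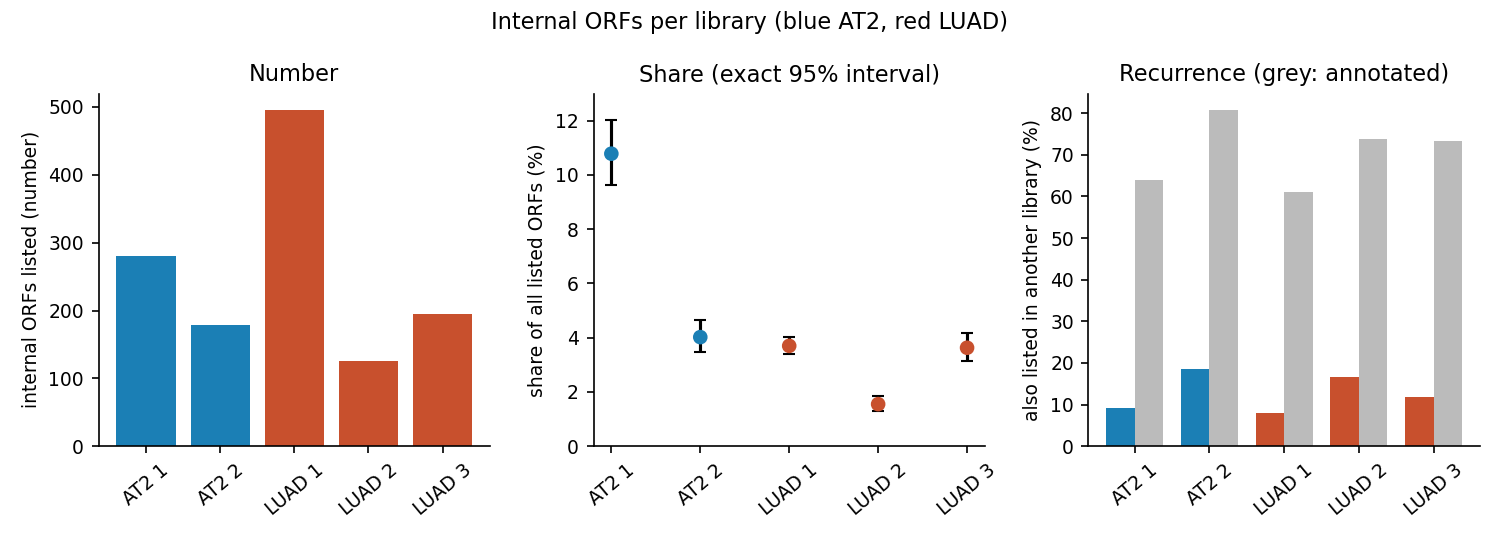
Internal ORFs per library as their number (left), as a share of all listed ORFs in percent with exact 95% binomial intervals (middle), and as the percent also listed in another library beside the same for annotated coding sequences in grey (right). LUAD 1 listed the most (495), AT2 1 had the highest share (10.8%), and recurrence stayed between 8.08% and 18.5% against 61.2% to 80.7% for annotated sequences.

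By the authors' identifier, the same internal ORF was rarely listed in a second library. The 1201 identifiers held 1139 distinct starts and 1142 distinct stops. ORFs that share only a start or only a stop count here as different members. Of the 1201 members, 1131 were listed in 1 library, 67 in 2 and 3 in 3, and none in 4 or 5. That is 5.83% in at least 2 libraries, against 47.7% of annotated coding sequences, 24.4% of ORFs after or across the stop codon and 11.5% of upstream and start-overlapping ORFs. Within a library, 8.08% to 18.5% of members recurred elsewhere, against 61.2% to 80.7% of annotated sequences, and the 2 ranges did not overlap. The AT2 libraries shared 6 members (2.14% of those in library 1 and 3.37% of those in library 2), and LUAD libraries 2 and 3 shared 9 (7.14% and 4.62%). The overlap with the most members was that of AT2 library 2 with LUAD library 1, which shared 18 (10.1% and 3.64%). The same pair shared 65.2% and 23.0% of their annotated coding sequences, while the AT2 libraries shared 18.7% and 8.77% and LUAD libraries 2 and 3 shared 25.8% and 40.8%. By tissue, 404 members (33.6%) were listed in AT2 alone, 749 (62.4%) in LUAD alone and 48 (4%) in both. Of annotated coding sequences, 8.96% were listed in AT2 alone, 67.8% in LUAD alone and 23.2% in both. LUAD had 3 lists and AT2 had 2.

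A set of 3 members, in Anp32b, Canx and Cav2, recurred in 3 libraries each and are named after their values were seen. Anp32b encodes an acidic histone-binding protein, and its ORF of 43 codons (chromosome 4, 46468746 to 46469972) had 17, 178 and 21 own-frame P-sites in AT2 library 2 and LUAD libraries 1 and 3. The frame of the Anp32b protein held 12, 168 and 23 there, so in LUAD library 3 the host frame exceeded the ORF's own. Canx encodes calnexin, a folding chaperone of the endoplasmic reticulum, and its ORF of 21 codons (chromosome 11, 50311651 to 50311716) had 12, 92 and 32 own-frame P-sites in AT2 library 2 and LUAD libraries 1 and 3, beside 4, 41 and 35 in the host frame. Cav2 encodes caveolin-2, a coat protein of membrane pits, and its ORF of 91 codons (chromosome 6, 17281386 to 17287047) had 11, 8 and 158 own-frame P-sites in AT2 libraries 1 and 2 and LUAD library 1. The Cav2 host frame held 9, 1 and 65. In all 9 of these listings the own frame held between 43.2% and 66.7% of the P-sites.

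Another 5 members were listed in both AT2 libraries and in no LUAD library. Among their hosts were Mybbp1a, a nucleolar transcription regulator, Hdac7, a histone deacetylase, Ero1l, an oxidase that forms disulfide bonds, and once more Cav2. Their own-frame P-sites were few, between 6 and 21 per library. The Mybbp1a ORF of 63 codons had 21 and 6, the Hdac7 ORF of 121 codons 13 and 8, the Ero1l ORF of 76 codons 9 and 10 and the Cav2 ORF of 42 codons 8 and 8. No member was listed in all 3 LUAD libraries.

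Host genes recurred more often than single ORFs. At least 1 internal ORF was listed in 2 or more libraries for 163 of 936 host genes (17.4%), in 4 libraries for 3 genes and in all 5 for none. Among the genes in 4 libraries, and named after their values were seen, were Myof, which encodes the membrane repair protein myoferlin, and Gnai2, an inhibitory G protein subunit. Their recurrence came from different ORFs, since the 4 Myof members ended at 4 different stop codons and the 3 Gnai2 members at 3. Most hosts (742) had 1 member. The most, 6, lay in Fasn, the fatty acid synthase, in AT2 library 2 and LUAD libraries 1 and 3, and Hspg2 (the basement membrane proteoglycan perlecan), Kmt2d (a histone methyltransferase), Snd1 (an RNA-binding nuclease) and Cnbp (a zinc finger nucleic acid binding protein) had 5 each. Members of a gene are not independent: the 5 Cnbp ORFs were all from AT2 library 2 and had 13 to 19 own-frame P-sites each, several sharing the same genomic ends through splicing.

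Most internal ORFs were shifted by 1 base from the host frame. None of the 2536 listings on transcripts with a 5′ untranslated region lay in the host's coding frame, so the label held there. Another 310 listings were on transcripts without one, where the frame was not read. Of these, 61 started a whole number of codons from the first base of the transcript. The frame could be set for 1146 members, of which 982 (85.7%) were +1 and 164 were +2. The +1 share was 85.3% and 95.3% in the AT2 libraries and 94.4%, 69.2% and 65.9% in the LUAD libraries, so LUAD libraries 2 and 3 stood below the others, with 37 and 63 members in +2. AT2 averaged 90.3% ± 7.05 and LUAD 76.5% ± 15.6 (SD, n = 2 and 3; exact permutation test, two-sided p = 0.4). The P-sites of annotated coding sequences in the same libraries (1 per gene, the one with the most own-frame P-sites) split unevenly over the 2 frames they do not use. Their +1 frame held 25.8% and 29.6% in AT2 and 29.2%, 21.6% and 23.8% in LUAD, and their +2 frame 27.5% and 22.9% in AT2 and 22.6%, 31.5% and 32.2% in LUAD. The 2 libraries whose coding sequences leaned most to +1, AT2 library 2 and LUAD library 1, had the highest shares of +1 members, and the 2 that leaned most to +2 had the lowest. The part of this leaning in the frames of the members was not tested.

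**Figure D2:**
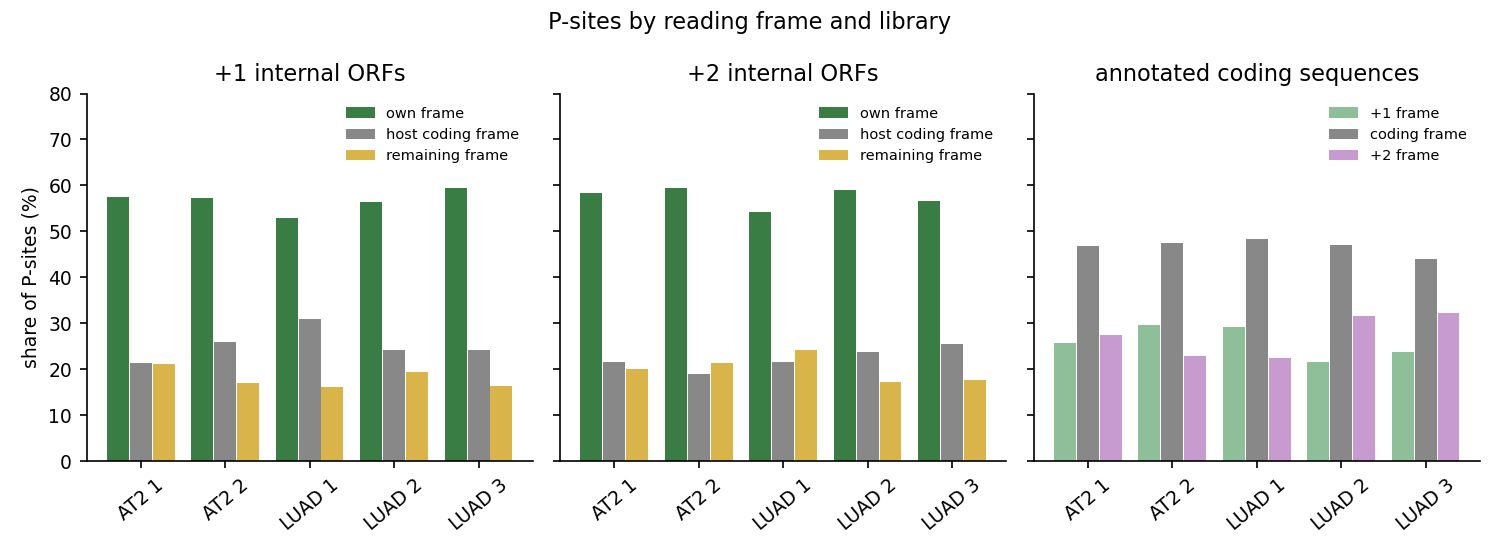
Share of P-sites (percent) in each reading frame by library, for +1 members (left), +2 members (middle) and annotated coding sequences (right). The own frame of +1 members held 52.9% to 59.4%, and the right panel shows the +2 frame of coding sequences above the +1 frame in AT2 1, LUAD 2 and LUAD 3 and below it in AT2 2 and LUAD 1.

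An internal ORF is listed because its own frame holds an excess of P-sites, so the level of that excess describes the listing. Summed over members, the own frame held 51.2% and 57.6% of P-sites in the AT2 libraries and 52.8%, 57.4% and 58.8% in the LUAD libraries, from 3541, 1986, 22372, 1403 and 2336 own-frame P-sites. The mean was 54.4% ± 4.53 in AT2 and 56.3% ± 3.10 in LUAD (SD, n = 2 and 3; exact permutation test, two-sided p = 0.6). Upstream and start-overlapping ORFs, which are listed by the same excess, held 53.5% to 60.5% by library. All listed annotated coding sequences held 44.1% to 47.8% in their own frame. A short ORF with few P-sites is listed only at a high share, and the part of this in the order of these classes was not tested. Paired tests of members against annotated sequences and against ORFs after or across the stop codon were run and count among the 8 comparisons below. Because of the listing they cannot decide anything about the members, and their results are not reported here.

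P-sites in the host frame were present within most members. For +1 members, the host coding frame held 21.5% and 25.9% of P-sites in AT2 and 31.0%, 24.2% and 24.2% in LUAD, and the remaining frame 21.1%, 16.9%, 16.1%, 19.5% and 16.3%. The host frame was ahead of the remaining frame in 5 of 5 libraries, by 7.36 points on average (exact paired permutation test over 5 libraries, p = 0.0625, the smallest that 5 libraries allow; adjusted over 8 paired comparisons p = 0.0833). For +2 members the gap was 2.22 points and positive in 3 of 5 libraries (exact paired permutation test, p = 0.4375; adjusted p = 0.4375). In 30 of 1213 listings the host frame held at least as many P-sites as the ORF's own, 23 of them in LUAD library 1. In 107 listings (8.82%) the host frame held none.

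The own-frame share fell with the number of P-sites behind it. Listings with under 10 P-sites in all 3 frames had a median share of 75%, those with 10 to 19 had 62.5%, those with 20 to 49 had 59.0%, those with 50 to 99 had 55.0% and those with 100 or more had 48.2%. The lists hold no p-value above 0.05 and no ORF with under 5 own-frame P-sites, and an ORF with few P-sites passes a test of excess only with a high share. Median own-frame P-sites per member were 8 and 9 in AT2, 30 in LUAD library 1 and 9 and 10 in LUAD libraries 2 and 3, so the medians stood at or below 10 in every library but LUAD library 1.

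**Figure D3:**
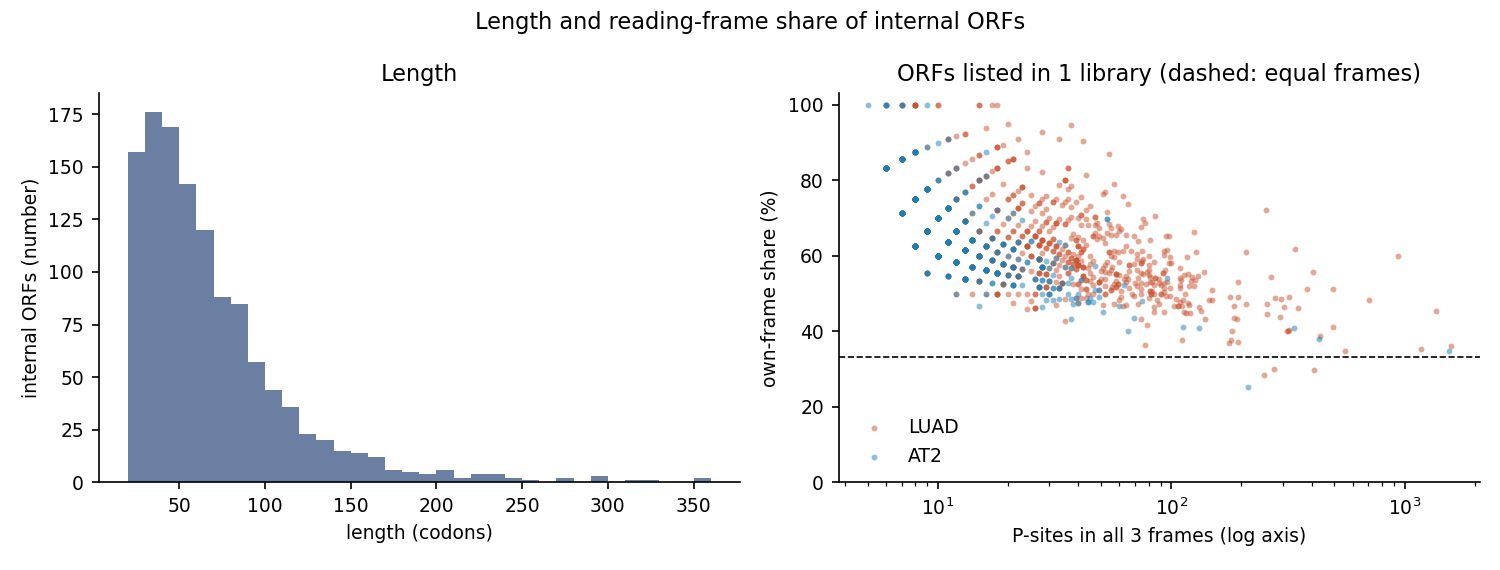
Number of internal ORFs by length in codons (left) and own-frame share in percent against P-sites in all 3 frames on a log axis for members listed in 1 library (right; dashed line, equal frames). The 155 plotted members under 10 P-sites had a median share of 75% and the 84 with 100 or more 47.2%, and 4 of these lie below the dashed line.

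The members with the most own-frame P-sites came mostly from the deepest list, since 8 of the 10 were listed in LUAD library 1 alone and P-sites were not scaled for depth. The top pair came from Ncl, which encodes nucleolin, the nucleolar protein of ribosome assembly, both in LUAD library 1. The Ncl ORF of 34 codons (chromosome 1, 86357068 to 86357172, minus strand) had 619 own-frame P-sites, 578 in the host frame and 170 in the remaining frame. The Ncl ORF of 42 codons (86356416 to 86356642) had 571, 810 and 194, so the nucleolin frame was ahead of it. In Hsp90ab1, the constitutive form of the chaperone HSP90, an ORF of 24 codons (chromosome 17, 45569303 to 45569377, minus strand) had 562 own-frame P-sites against 198 in the host frame and 179 in the remaining frame in LUAD library 1. Its own-frame share of 59.9% (exact 95% interval 56.6% to 63.0%) was the second highest of the 10 members with the most P-sites, after 61.9% in Fam107b, and the authors' p-value was 0.000139. The fourth was an ORF in the mitochondrial gene mt-Cytb, described with that group. In Krt7, a keratin of simple epithelia, an ORF of 39 codons had 415 own-frame P-sites against 524 in the host frame. The next were Scd2 (340 own-frame P-sites), a fatty acid desaturase, Chka (253), the choline kinase of phospholipid synthesis, Pdap1 (226), Anp32b (216 over 3 libraries) and Fam107b (210). By the authors' RPKM, which scales for depth and length, the highest members were instead those of mt-Nd1 (839) and Krt18 (772).

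A group of 6 members came from mitochondrial genes, which carry no 5′ untranslated region in the annotation, so their frame was not set. In AT2 library 1 an ORF of 187 codons in mt-Cytb, cytochrome b, had 542 P-sites in its own frame, 520 and 492 in the others, an own-frame share of 34.9%. An ORF in mt-Nd1, a subunit of complex I, had 163, 151 and 116. Another 4 had fewer P-sites. An mt-Co1 ORF in AT2 library 1 (cytochrome c oxidase subunit) had 30, 27 and 12, and the mt-Co1 ORFs in LUAD library 1 had 64, 20 and 14 and 32, 10 and 16. An mt-Nd5 ORF, also of a complex I gene, had 28, 7 and 5 in LUAD library 3. Their own-frame shares ran from 43.5% to 70%. These members were named after their values were seen. Without them the own-frame share of AT2 library 1 was 57.7% in place of 51.2%, and the difference between tissues turned from 1.93 points higher to 1.36 points lower in LUAD (exact permutation test, two-sided p = 0.8).

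Against the host protein, the median member that could be compared was denser in own-frame P-sites than an annotated coding sequence of its gene. An annotated coding sequence of the host gene was itself listed in the same library for 10% and 31.5% of members in AT2 and 68.7%, 38.1% and 32.3% in LUAD. Where a gene had several, the one with the most own-frame P-sites was taken. It was averaged over its whole length and was not checked to hold the member. For these members, own-frame P-sites per base of the ORF divided by own-frame P-sites per base of that annotated sequence had medians of 1.52, 1.61, 1.5, 1.89 and 1.62. The Canx ORF of 21 codons stood at 2.09 and 2.82 in LUAD libraries 1 and 3, and the Cav2 ORF of 91 codons at 0.890 and 1.07 in AT2 library 1 and LUAD library 1. The listing picks ORFs with many own-frame P-sites, so these ratios describe listed ORFs only.

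Members started along the whole host coding sequence, least often in its final stretch. A member has at least 20 codons and has to fit inside the coding sequence, so starts near its end are limited by definition. The median start lay 45.3% of the way through the coding sequence (1117 members with a known place), with 26.1% in the opening 20% of the sequence. The opening 10% of the sequence held 15.0% of members and the closing 10% held 2.60%. Within 100 bases of the host's start codon lay 113 members (10.1%), a share that ran from 6.84% in LUAD library 1 to 16.9% in AT2 library 2. The Canx ORF of 21 codons started 3.43% of the way in, an Eif5a ORF 1.51%, and a Fasn ORF of 52 codons 97.7%. Eif5a encodes a translation elongation factor, and its ORF of 88 codons had 167 own-frame and 147 host-frame P-sites.

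**Figure D4:**
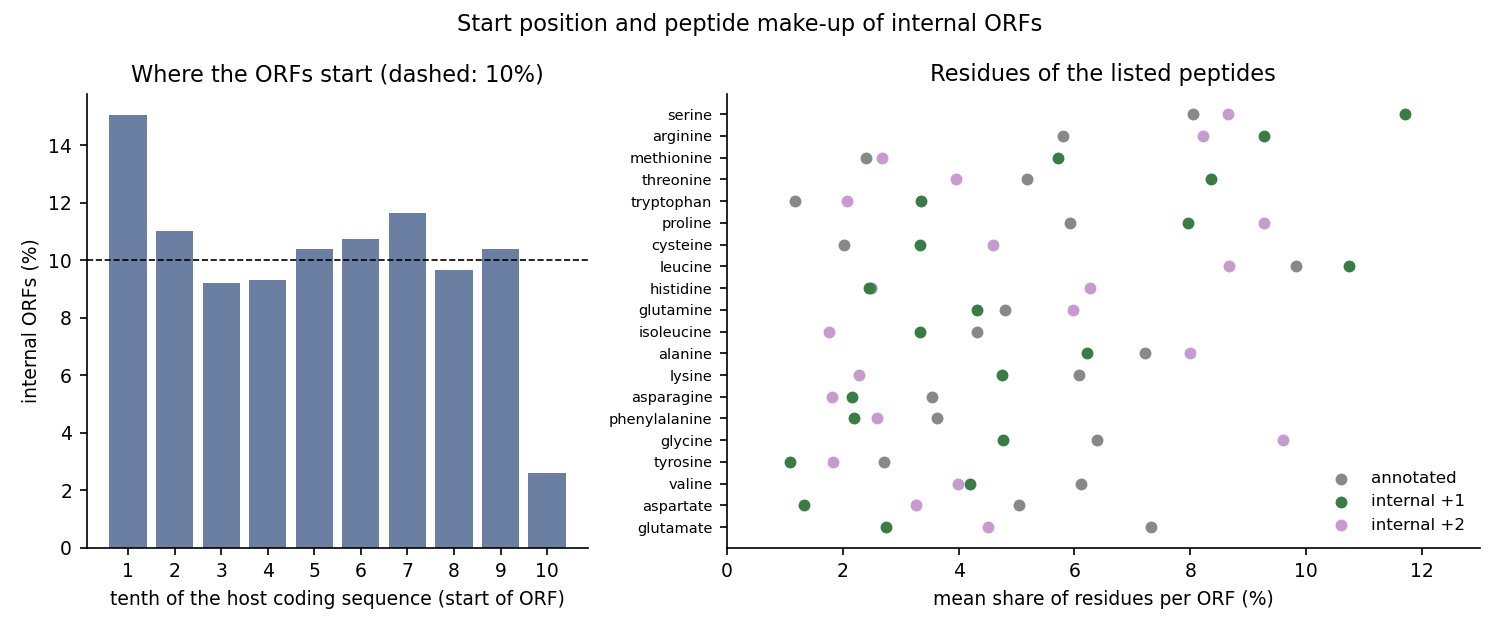
Percent of internal ORFs that start in each 10% of the host coding sequence (left) and the mean share of each residue per listed peptide in percent for annotated, +1 and +2 ORFs (right). The opening 10% holds 15.0% and the closing 10% holds 2.60%, and serine and arginine stand highest above annotated proteins in +1 peptides while glutamate and aspartate stand lowest below them.

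The peptides of internal ORFs differed in make-up from annotated proteins. The rule takes ORFs read in another frame than the host's, and how far this sets the make-up was not tested. Arginine averaged 9.08% of residues per member against 5.80% in annotated proteins, serine 11.3% against 8.05%, proline 8.18% against 5.93% and tryptophan 3.14% against 1.17%. Methionine averaged 5.26% against 2.41%, which includes the start of each short peptide. The acidic residues stood lower, with glutamate at 3.00% against 7.33% and aspartate at 1.60% against 5.04%. Basic residues (arginine and lysine) outnumbered acidic ones in 83.8% of members, against 39.2% of annotated proteins and 55.1% of ORFs after or across the stop codon. The share was 86.9% in +1 and 64.6% in +2 members. Glycine, at 9.61%, and histidine, at 6.28%, were higher in +2 than in +1 peptides, where they averaged 4.77% and 2.45%. These are descriptions over ORFs that share host sequences and have no test.

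Internal ORFs were listed in 936 of 7379 genes with any listed ORF (12.7%), and more often in long genes. Hosts with an annotated ORF in the lists had a median coding length of 647 codons against 473 for other genes. The share of hosts was 6.18% among genes up to 200 codons, 8.15% from 200 to 400, 12.1% from 400 to 800, 16.3% from 800 to 1600 and 26.2% above. Hosts also stood higher in level, with a median footprint TPM (a level per transcript length) of 27.3 in AT2 and 40.9 in LUAD against 9.97 and 14 over all genes. A listing takes at least 5 own-frame P-sites, so the footprint level is in part a condition of being a host. In RNA the medians were 23.7 and 21.9 TPM against 11.5 and 10.8. The lists of functions below are read beside these values, and the part of length or level in their counts was not tested.

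Among the lists of functions, matrix and secreted proteins had the highest share of hosts, followed by splicing and RNA-binding proteins. Matrix and secreted proteins, with a median coding length of 1713 codons, had 10 hosts of 16 genes with any listed ORF (62.5%), among them Hspg2, Lama5 (a laminin chain) and Fn1 (fibronectin). The matrix member with the most own-frame P-sites was the Hspg2 ORF of 123 codons, with 8 own-frame P-sites in AT2 library 2 and 49 in LUAD library 1. Splicing and RNA-binding proteins had 17 of 30, keratins and junction proteins 8 of 15, the actin cytoskeleton 12 of 23, chaperones 12 of 24 and translation factors 16 of 41. Beside Krt7, keratin 18 (Krt18) held an ORF of 42 codons with 138 own-frame and 139 host-frame P-sites in AT2 library 2, an even split. In the actin group an Ezr ORF of 22 codons (ezrin, a linker of actin to the membrane) had 128 own-frame and 62 host-frame P-sites, and a Msn ORF of 54 codons (moesin) 99 and 76.

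Several groups lay below the 12.7% of all genes, also on small counts. Cytosolic ribosomal proteins, abundant but short (median 158 codons), had 2 of 26 (Rpl13a and Rps3), or 7.69%. Among all genes up to 200 codons, 6.18% were hosts. Annexins, S100 proteins and galectins had 1 host of 23. That gene was Anxa2, whose ORF of 54 codons had 192 own-frame P-sites and 294 in another frame in LUAD library 1. Histone genes had 0 of 8, gut, gastric and oncofetal genes 1 of 12 (Spp1) and programmed frameshift genes 0 of 1. The remaining groups lay above that share, on small counts. Glycolysis enzymes had 2 of 10 (Gpi1 and Hk1) and the proteasome and ubiquitin list 7 of 28. AT2 identity and surfactant genes had 2 of 8, and transcription factors of stress and growth 3 of 17 (Atf5, Klf5 and Myc). Of 9 genes known for an overlapping second protein or frame, 3 were hosts (among them Ankhd1 and Prnp, the gene of the prion protein), with 7 members, all +1.

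Levels of the host genes were compared between LUAD and AT2 in the footprint and RNA libraries. Whether the ORF lists share material with these libraries is not stated, so host levels may not be independent of the listing. The labels do not say that the footprint and RNA libraries came from separate cultures, so the spread behind these p-values may be technical. Of 938 host gene IDs, 922 passed the filter on low counts in footprints, and 94 were higher and 114 lower in LUAD (edgeR quasi-likelihood, adjusted p under 0.05). That is 22.6% of hosts, beside 21.3% of all 6814 genes tested (9.47% higher and 11.8% lower), so the hosts changed at about the background rate. In RNA 926 passed the filter, and 171 were higher and 200 lower, 40.1% beside 37% of 6942 genes (19% higher and 18% lower). Scaling on all transcripts shifted the median log2 fold change by 0.17 in each assay and gave 142 higher and 90 lower hosts in footprints and 241 and 146 in RNA, so directions here are relative to the fitted genes. Among 921 hosts tested in both assays, 60 (6.51%) were higher in both and 93 (10.1%) lower in both, beside 440 (6.56%) and 586 (8.73%) of all 6710 genes tested in both.

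Hosts were also divided by the tissue that listed their ORFs. For genes whose internal ORFs were listed in AT2 alone, RNA was lower in LUAD for 85 and higher for 36 of 269 (31.6% and 13.4%), with a median log2 fold change of -0.24. For genes with ORFs listed in LUAD alone, RNA was higher for 117 and lower for 89 of 547 (21.4% and 16.3%), with a median of 0.03, beside a median of 0.04 over all genes. In footprints AT2 hosts had 17 higher (6.32%) and 64 lower (23.79%) of 269. LUAD hosts had 65 higher (11.97%) and 38 lower (6.998%) of 543. Over all 6814 genes tested in footprints, 9.47% were higher and 11.8% lower. Listing itself depends on footprint number, and the difference between these sets of hosts was not tested. Counts of footprint calls fell to 56 higher hosts without LUAD library 2, 56 without library 3 and 57 without library 4, and to 61 without AT2 library 2. Lower hosts fell to 75 without LUAD library 3. In RNA the 171 higher and 200 lower hosts fell to 102 and 128 without AT2 library 1 and to 94 and 127 without AT2 library 2, and the higher ones to 113 without LUAD library 4.

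**Figure D5:**
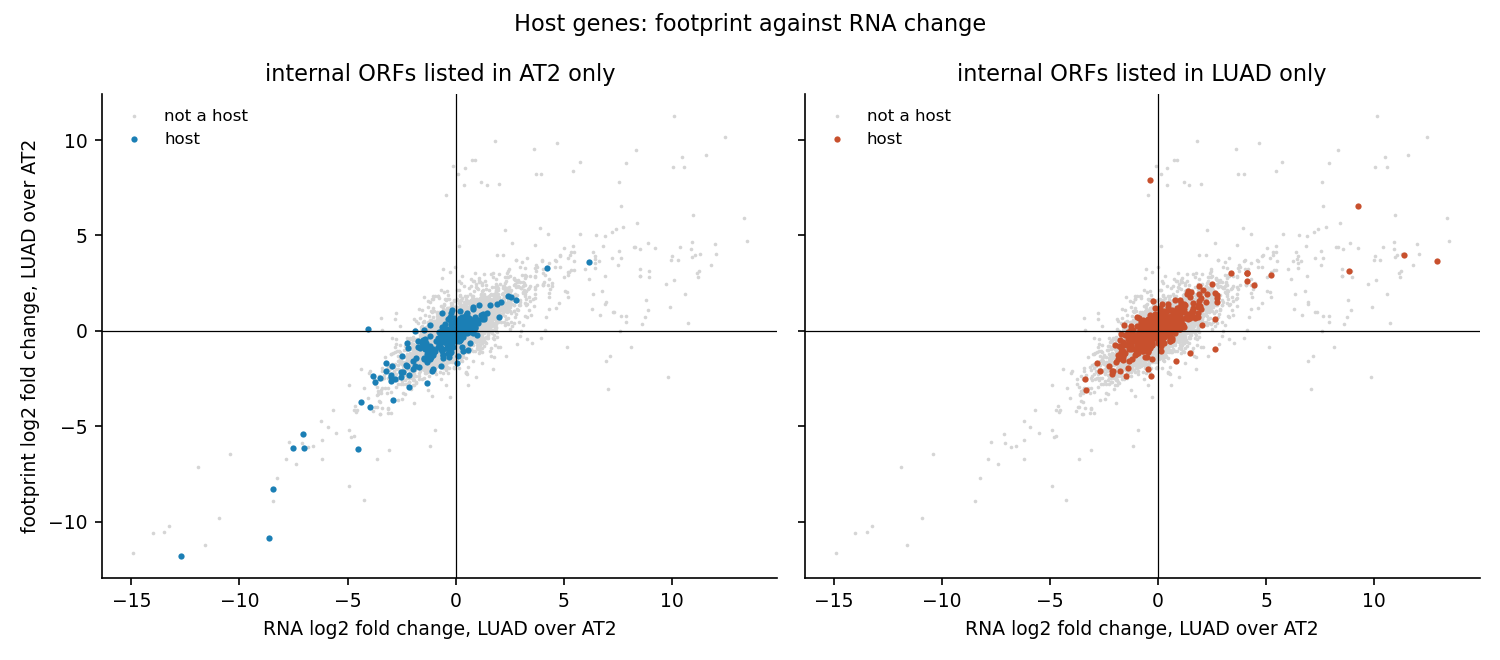
Footprint against RNA log2 fold change (LUAD over AT2) for genes whose internal ORFs were listed in AT2 alone (left) and in LUAD alone (right), with genes that host none in grey. AT2 hosts have a median RNA log2 fold change of -0.24 and extend to the lower left, while LUAD hosts centre on 0.03.

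The hosts with the largest losses in LUAD include genes with almost no LUAD footprints, whose ORFs could hardly be listed there, since a listing takes at least 5 own-frame P-sites. The tissue of the listing is given below as a description. Scnn1g, which encodes the gamma subunit of the sodium channel ENaC, had footprints of 380, 84.3 and 59.0 CPM (counts relative to the scaled library size) in AT2 and 0.254, 0, 0 and 0 in LUAD, 787 counts against 1. The ratio was 4634 (counting interval 829 to 183280), with an edgeR adjusted p of 0.000572. Its ORF of 72 codons was listed in AT2 library 1 with 5 own-frame P-sites of 6. Sftpb, surfactant protein B, had 30.2, 49.6 and 33.7 footprint CPM in AT2 and no count in LUAD, at least 477-fold lower when LUAD is set to a floor of 3 counts in all (edgeR adjusted p = 0.000839). AT2 library 2 listed its ORF of 37 codons with 7 own-frame P-sites of 8. Aqp5, a water channel of the alveolar surface, fell from 658 ± 327 to 2.39 ± 1.97 footprint CPM (SD, n = 3 and 4; edgeR adjusted p = 0.000476), and its ORF of 24 codons had 5 of 8. Mcam, an adhesion molecule, fell from 600 ± 309 to 8.81 ± 8.10 CPM (edgeR adjusted p = 0.00248). Col4a5, a collagen IV chain, fell from 245 ± 154 to 3.75 ± 3.27 CPM in footprints (edgeR adjusted p = 0.00203), and the RNA of its relative Col4a2 fell from 560 ± 364 to 4.22 ± 1.24 CPM (edgeR adjusted p = 0.000190).

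The ORFs of the hosts with the largest gains came mostly from LUAD library 1, the deepest list, and genes with almost no AT2 footprints could hardly be listed in AT2. Duox2, an oxidase that makes hydrogen peroxide, had 0.889, 0 and 0.378 footprint CPM in AT2 and 34.5, 23.2, 35.0 and 38.5 in LUAD, 2 counts against 1173, which is 99.6-fold (counting interval 27.5 to 823), with an edgeR adjusted p of 0.000614. It hosted a +1 ORF of 73 codons with 45 own-frame P-sites of 80 and a +2 ORF of 32 codons with 20 of 29. Ltf, the iron-binding protein lactoferrin, had no RNA count in AT2, which makes LUAD at least 374-fold higher by the same floor, and its ORF of 54 codons had 44 own-frame P-sites of 84. Its footprints rose from 6.74 ± 4.99 to 84.5 ± 13.2 CPM (SD, n = 3 and 4; edgeR adjusted p = 0.00395). Pxdn, a peroxidase of the matrix, had no RNA count in AT2 either and was at least 129-fold higher, while its footprints rose from 8.73 ± 5.05 to 134 ± 21.3 CPM (SD, n = 3 and 4; edgeR adjusted p = 0.00104). It held an ORF of 66 codons with 11 own-frame P-sites of 18. The RNA of Axl, a receptor tyrosine kinase, stood at 13.3, 10.9 and 6.59 CPM in AT2 and 469, 458, 326 and 327 in LUAD, with no overlap. On the log2 scale that was 5.22 higher with an SE of 0.30 (edgeR adjusted p = 3.8e-05). Axl footprints rose from 45.8 ± 29.5 to 359 ± 80.6 CPM (SD, n = 3 and 4; edgeR adjusted p = 0.00315). Its ORF of 98 codons had 31 own-frame P-sites of 55.

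The tissue that listed the ORF was not always the one with more of the host. By RNA, 36 of 269 AT2 hosts (13.4%) passed the edgeR threshold as higher in LUAD, beside 19% of all genes tested. Of 547 LUAD hosts, 89 (16.3%) passed as lower in LUAD, beside 18% of all genes tested. Hosts that leaned the same way without passing are not in these counts. The examples named here were chosen after their values were seen. Spp1, the secreted matrix protein osteopontin, had RNA of 33.6, 9.67 and 69.1 CPM in AT2 and 2699, 2918, 2467 and 2467 in LUAD (edgeR adjusted p = 0.000372), yet its internal ORF of 94 codons was listed in AT2 library 2 alone, with 8 own-frame P-sites of 11. Sftpd, surfactant protein D, fell from 818 ± 143 to 95.2 ± 22.6 footprint CPM (SD, n = 3 and 4; edgeR adjusted p = 0.000358), and its ORF of 59 codons was listed in LUAD library 1 alone, with 22 own-frame P-sites of 39. Myc, a growth transcription factor, rose from 167 ± 64.4 to 442 ± 34.9 footprint CPM (SD, n = 3 and 4; edgeR adjusted p = 0.0120), and its ORF of 90 codons was listed in AT2 library 2 alone, with 16 own-frame P-sites of 25. Krt7, whose ORF was listed in LUAD library 1, had lower footprints in LUAD, at 5069 against 9485 CPM on average (edgeR adjusted p = 0.0228), and Cnbp, whose 5 ORFs were listed in AT2, had higher RNA in LUAD, at 807 against 347 CPM (edgeR adjusted p = 0.0192).

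Zmiz2, a coactivator of transcription, and Zc3h11a, an RNA export factor, topped the footprint gains but rest on an uncertain sum. Gene levels add up only transcripts that occur in the ORF lists, 2 for Zmiz2 and 1 for Zc3h11a. Zmiz2 had no AT2 footprint count, so LUAD was at least 24.7-fold higher, yet AT2 library 1 and LUAD library 1 both listed its ORF of 111 codons, and its RNA did not pass (log2 fold change -0.51, edgeR adjusted p = 0.869). Zc3h11a footprints were 3.55, 80.9, 33.1 and 55.9 CPM in LUAD, a wide spread, against 1 count in AT2, 321-fold (counting interval 57.6 to 12690). The edgeR adjusted p was 0.00897, and 0.0521 without AT2 library 2. The RNA of that gene ID did not pass (46.0 against 35.9 CPM; edgeR adjusted p = 0.538). The Zc3h11a ORF of 38 codons was listed with 18 own-frame P-sites of 21 under 2 gene IDs with the same coordinates. The second gene ID averaged 102.7 footprint CPM in AT2 and 77.8 in LUAD and did not pass (log2 fold change -0.39, edgeR adjusted p = 0.716). In library order its LUAD values were 162, 84.6, 45.3 and 19.9 CPM. The gain was thus seen for 1 of 2 IDs and is not shown for the gene. How footprints were divided between the IDs was not tested.

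Markers of the organoids moved with these comparisons. The AT2 markers that could be read (Abca3, Lpcat1, Nkx2-1, Sftpb and Sftpd, 5 of 10) summed to 1563 to 2931 footprint CPM in AT2 libraries and 274 to 377 in LUAD. The AT1 markers Aqp5 and Cldn18 (2 of 5) summed to 471 to 1252 against 0.769 to 5.33. The gut endoderm markers Anxa10, Hnf4a and Lgals4 (3 of 3) summed to 0 to 6.23 against 90.7 to 98.8, the macrophage markers Cd14 and Mrc1 (2 of 5) to 8.68 to 8.89 against 77.6 to 101, and the fibroblast marker Bgn (1 of 6) stood at 2.65 to 3.56 against 41.5 to 104. No club or endothelial marker had a listed transcript. Their part in the host results was not tested, and fewer cells of a type and less RNA per cell cannot be told apart.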

How the data were processed

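Each ORF list holds the authors' counts of P-sites by reading frame, a deposited RPKM per ORF and the authors' p-value (per the file headers), and the submitters' processing notes name mm10. Which program called the ORFs is not stated in the sources used here. ORFs were matched by the authors' identifier. The reading frame was set from the ORF start and the listed 5′ untranslated length. Footprint and RNA tables hold the authors' deposited estimated counts and TPM values by transcript, and the submitters' processing notes name kallisto. The ORF lists served to pair transcripts with genes (22509 of 118489 transcripts, 65.0% to 70.0% of a library's counts). Libraries held 3.03 to 14.2 M estimated footprint counts and 4.12 to 33.2 M RNA counts. Sums were rounded and tested with edgeR 4.0.16 in R 4.3.3 (TMM, filterByExpr, robust quasi-likelihood, Benjamini-Hochberg over all genes), and CPM uses the scaled library size over these genes. DESeq2 1.42.0 was an alternative. Libraries were compared with exact permutation tests (scipy 1.17.1), and the edgeR fit was tested on simulated data.

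Named ORFs are the 10 with the most own-frame P-sites, those in both AT2 and no LUAD library, the shortest and longest, those of the 5 genes with most members and up to 2 per gene list. Named hosts are the 5 largest changes per direction and assay with a mean of 50 counts in the higher group, not all of which are described. Some ORFs and hosts that these rules take are not reported here. Members and lists were chosen with earlier results of these data known. Of the host symbols, 915 of 936 are in the RefSeq table. RNA libraries with equal numbers in AT2 and LUAD deviated together from their group means (correlations 0.19, 0.15 and 0.24), but libraries with unequal numbers within the same set did so as much (0.18, 0.16 and 0.24), so the numbers are not shown to pair them. Footprint numbers did not pair (0.37, -0.30 and 0.30). No 2 replicates agreed within sampling noise.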

Additional observations from a re-analysis of the deposited data

Results flagged for a closer look

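Among 20 sets of 4 LUAD libraries of named host genes, 2 had 1 library far from the other 3, where chance flags about 1 in 20. Scnn1g footprints stood at 0.254 CPM in LUAD library 1 and at 0 in the others. Scnn1g RNA stood at 0.226 CPM in LUAD library 4 and at 0 in the others. Each of these values is a single count. Groups of 2 or 3 libraries, which include all ORF lists, were not checked this way.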

How the results depend on the processing

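No difference between the tissues in the number, share or own-frame share of internal ORFs could reach a threshold with 2 and 3 libraries. Leaving out 1 ORF library moved the difference (LUAD minus AT2) from -68.5 to 116 in number, -7.82 to -1.06 points in share and -1.27 to 5.13 points in own-frame share. The difference in own-frame share also turned to -3.69 points for ORFs with a p-value under 0.01 and to -1.36 points without mitochondrial genes, chosen after seeing the data. Leaving out 1 library gave 841 to 1896 genes past the footprint test and 1628 to 3355 past the RNA test, 56 to 129 higher and 75 to 140 lower hosts in footprints, and 94 to 217 higher and 127 to 272 lower hosts in RNA. A fit with the replicate number as a block called 934 genes in footprints against 1448, and 2606 in RNA against 2572, where no other call counted here moved by over 1.5 times. DESeq2 gave 147 higher hosts in footprints, and library sizes over all transcripts 142. Libraries fell into 2 sets by their deviations, drawn from these same libraries. With the set as a term, chosen after seeing the data, 2870 genes passed in footprints, with 233 higher and 235 lower hosts, and 269 higher and 302 lower hosts passed in RNA. The cause of these moves was not tested. Of the named hosts, Duox2 RNA (adjusted p up to 0.0542) and Zc3h11a footprints (up to 0.0521) missed the threshold in 1 alternative each, and none changed direction in any alternative.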
